A study of Mus musculus with 24 samples.

Results

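The genes described here are 10 members of the ATF4 amino acid stress response, namely Trib3, Atf4, Ddit3, Asns, Chac1, Sesn2, Psat1, Phgdh, Cebpb and Igfbp1, out of 25361 genes in the deposited expression table. They were taken by name, except that Ddit3 stands in the table as 2 Ensembl genes of that name, of which the row with identifier ENSMUSG00000025408 was used and the other was listed at 0 in every library. The list was chosen by the TPM values of Trib3, which were high in the non-endothelial cells of livers lacking both Chd4 and Brg1 in the endothelium. Values of that comparison are therefore given as a description, with no test.

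ATF4 is a basic leucine zipper transcription factor whose messenger RNA is present in resting cells but is translated efficiently only when the initiation factor eIF2 is phosphorylated. The kinases that phosphorylate eIF2 sense uncharged tRNA, unfolded protein in the endoplasmic reticulum, haem shortage or double-stranded RNA, and the shared output is called the integrated stress response. ATF4 protein, paired with C/EBP family members, binds C/EBP-ATF response elements near genes for amino acid synthesis, amino acid transport and tRNA charging, and under lasting stress near Ddit3, Chac1 and Trib3. In the liver the same program also touches the hepatocyte gene Igfbp1, which encodes a secreted binding protein for insulin-like growth factors and responds to fasting and hypoxia as well.

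The samples were RNA-seq libraries of mouse livers at embryonic day 12.5, each from 1 embryo, split by magnetic beads against CD146 into liver sinusoidal endothelial cells (LSECs) and the cells that did not bind (non-EC cells). The 4 genotypes were Chd4-ECKO (Chd4 fl/fl;Brg1 fl/+;VE-cadherin-Cre+), Brg1-ECKO (Chd4 fl/+;Brg1 fl/fl;VE-cadherin-Cre+), Chd4/Brg1-ECDKO (Chd4 fl/fl;Brg1 fl/fl;VE-cadherin-Cre+) and Cre-negative controls (Cre-) that carried floxed alleles of both genes. There were 3 libraries per genotype and fraction, 24 in all, and the single knockouts were heterozygous for the other floxed gene. CHD4 and BRG1 are the ATPases of chromatin remodelling complexes, VE-cadherin-Cre acts in endothelial cells and in blood cells that descend from them, and the mutation is thus not placed in hepatoblasts, the hepatocyte precursors.

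Values are TPM, read numbers divided by transcript length and scaled to a fixed sum per library, so levels can be set side by side between genes. The read number of each library cannot be told from values with a fixed sum, and the study's methods give a single nominal read number for all libraries. The 9 endothelial markers summed to 900 to 1876 TPM in LSECs and 29.9 to 72.9 TPM in non-EC cells, so the labelled fractions matched their markers. Hepatoblast markers summed to 3483 to 8044 TPM in 11 LSEC libraries and to 28059 TPM in Brg1-ECKO replicate 1, which stood apart, against 17309 to 37447 TPM in non-EC cells. Chd4 averaged 262, 215, 282 and 249 TPM in LSECs of Cre-, Chd4-ECKO, Brg1-ECKO and Chd4/Brg1-ECDKO embryos, counted over the whole gene, and Smarca4, which encodes BRG1, averaged 146, 127, 132 and 133 TPM. The floxed exons could not be separated from the rest of either transcript. Mitochondrial genes took 13.9 to 31.5% of TPM in LSECs and 2.33 to 7.69% in non-EC cells.

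The sequences below show where the ATF4 binding word lies in members that were measured here. The word searched was TGATGNAA, the core of the C/EBP-ATF response element, on both strands, in the 300 bases from 250 before to 50 past each annotated start of a protein-coding transcript (GRCm39, GENCODE vM39). It was found at 1 or more starts of 4 of the 10 members, Trib3, Ddit3, Asns and Chac1, against 6.38% of 20771 protein-coding genes. At the canonical start alone it was found for 2 of 10 members, Ddit3 and Chac1, against 3.62% of genes. The genes compared were those of the expression table, without 1 autosome and the Y chromosome. Trib3, Ddit3 and Asns had 6, 7 and 7 annotated starts, against a median of 2 over all genes, and so offered more windows in which to match. The members were listed as ATF4 genes and the word is ATF4's binding site, so nothing is read from a share above that of all genes. Trib3 also holds TTACATCA, a match on the opposite strand, at 36 to 43 and at 40 to 47 past 2 of its other starts, which is not printed. For each of the 4 genes the 30 bases around 1 match upstream of a start are printed 5′ to 3′ along the gene, with the match in capitals.
Trib3, chr2:152191986-152192015, minus strand: gcaaggctttcTGATGCAActggctgaatt
Ddit3, chr10:127126350-127126379, plus strand: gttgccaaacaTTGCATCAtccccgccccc
Asns, chr6:7693214-7693243, minus strand: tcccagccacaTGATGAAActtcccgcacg
Chac1, chr2:119181519-119181548, plus strand: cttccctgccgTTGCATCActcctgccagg

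In Ddit3 and Chac1 the match read on the strand opposite to the gene and had the same 8 letters, TTGCATCA. Trib3 is shown at more length because it gave the list its reason, and Igfbp1 and Cebpb because they carried the calls described further on. The 250 bases upstream of the outermost Trib3 start hold the word at -46 to -39 relative to that start, while the windows of Igfbp1 and Cebpb, which have 1 annotated start each, hold no match. No match says only that these letters are not in the window.
Trib3, chr2:152191959-152192208, minus strand, upstream of the outermost start: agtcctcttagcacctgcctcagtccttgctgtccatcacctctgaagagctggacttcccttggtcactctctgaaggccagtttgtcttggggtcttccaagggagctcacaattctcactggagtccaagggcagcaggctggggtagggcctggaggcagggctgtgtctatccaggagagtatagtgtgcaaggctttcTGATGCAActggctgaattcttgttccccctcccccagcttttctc
Igfbp1, chr11:7147401-7147650, plus strand, upstream of its start: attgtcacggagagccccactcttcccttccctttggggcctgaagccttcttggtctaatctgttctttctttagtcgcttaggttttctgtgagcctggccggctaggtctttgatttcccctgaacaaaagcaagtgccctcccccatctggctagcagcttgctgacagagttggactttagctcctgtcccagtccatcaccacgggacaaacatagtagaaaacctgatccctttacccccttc
Cebpb, chr2:167530585-167530834, plus strand, upstream of its start: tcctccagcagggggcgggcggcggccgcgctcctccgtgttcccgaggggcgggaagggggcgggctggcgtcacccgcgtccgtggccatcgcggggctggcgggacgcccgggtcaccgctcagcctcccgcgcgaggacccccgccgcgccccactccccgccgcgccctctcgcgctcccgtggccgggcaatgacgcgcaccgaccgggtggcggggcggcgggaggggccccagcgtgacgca

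Among the members, ATF4's own transcript and the amino acid enzymes were the most abundant in non-EC cells, and Trib3 and Chac1 were the scarcest. In the 12 LSEC libraries Atf4 (chr15:80139372-80141745, plus strand) ran from 188 to 257 TPM, and in the 12 non-EC libraries from 333 to 464 TPM. Asparagine synthetase Asns and the serine pathway enzymes Phgdh and Psat1 ranged from 203 to 499 TPM in non-EC cells. Trib3 and Chac1 stayed below 7 TPM in every library, while Ddit3, also a target under lasting stress, ran from 31.4 to 72.7 TPM.

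**Figure D1:**
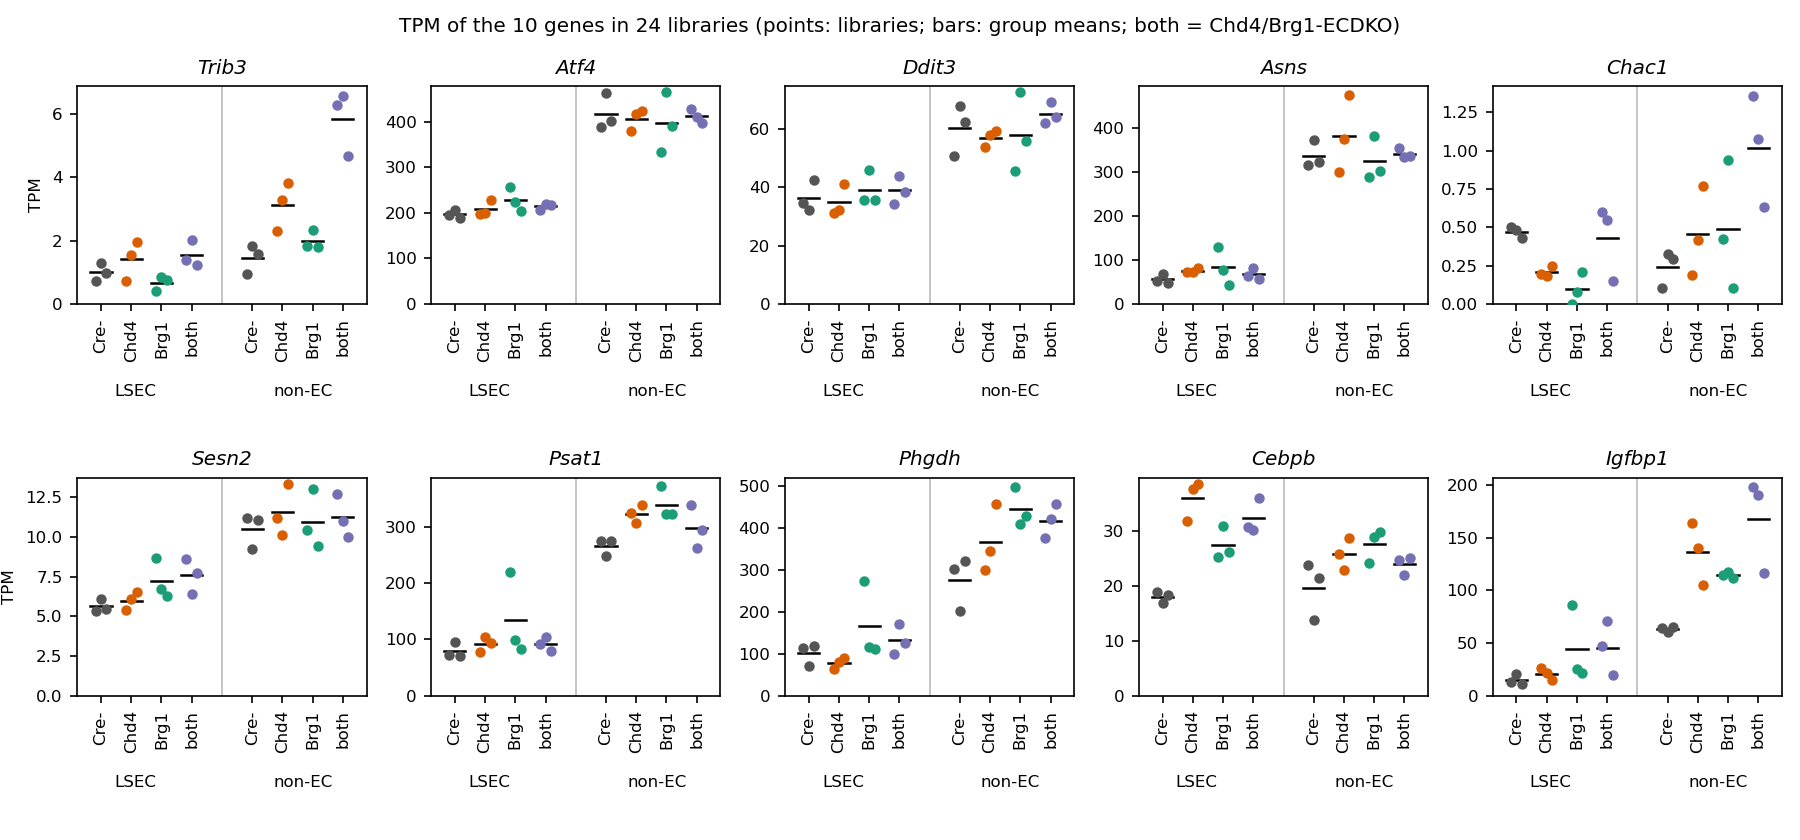
TPM (vertical axis, linear, 1 scale per panel) of the 10 genes in LSECs (left of each panel) and non-EC cells (right), with 1 point per library and a bar at the mean of 3. Trib3 and Igfbp1 lie highest in non-EC cells of Chd4/Brg1-ECDKO livers by their means, 5.83 and 168 TPM, while Atf4 shows 412 TPM there against 417 TPM in Cre-.

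Trib3 (chr2:152179337-152191958, minus strand) encodes a pseudokinase that binds AKT and ATF4 and is itself induced through ATF4 and CHOP. In the non-EC cells Trib3 measured 0.931, 1.84 and 1.58 TPM in the Cre- libraries and 6.27, 6.56 and 4.66 TPM in the Chd4/Brg1-ECDKO libraries. Every Chd4/Brg1-ECDKO library lay above every Cre- library, and above every Chd4-ECKO and Brg1-ECKO library too. The means were 1.45 ± 0.470 and 5.83 ± 1.02 TPM (SD, n = 3 each), a ratio of 4.01 and a difference of 1.49 on the log2(TPM + 1) scale, given without a test because this difference chose the gene. At such low levels the added 1 TPM makes the log2 difference smaller than the ratio, and with 0.1 TPM added it was 1.97. Trib3 overlaps 1 gene on the opposite strand that is not protein-coding, so its level may hold reads of that gene.

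The means of the single knockouts lay between these groups. Non-EC Trib3 measured 2.31, 3.28 and 3.80 TPM in Chd4-ECKO and 1.84, 2.35 and 1.81 TPM in Brg1-ECKO. The Chd4-ECKO libraries were all above the Cre- libraries, with a mean of 3.13 ± 0.758 TPM (SD, n = 3), whereas Brg1-ECKO, 1.38 times the Cre- mean, overlapped Cre-. These comparisons use the same Cre- libraries as the one that chose Trib3, and their differences of 0.75 and 0.31 on the log2 scale are likewise a description. Brg1-ECKO against Chd4-ECKO does not use them. There Trib3 was 0.639 times as high in Brg1-ECKO, a log2 difference of -0.45 (SE 0.20, 95% interval -0.88 to -0.01), which did not pass limma's test after Benjamini-Hochberg adjustment over all genes (adjusted p = 0.969). In the order of the means, Chd4/Brg1-ECDKO, Chd4-ECKO, Brg1-ECKO and Cre-, only the Chd4/Brg1-ECDKO libraries did not overlap those of the next group. Nothing is read from this gap, since the high Chd4/Brg1-ECDKO values chose the gene.

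In LSECs Trib3 was low in all 4 genotypes. It measured 0.727, 1.29 and 0.978 TPM in Cre-, 0.717, 1.56 and 1.95 TPM in Chd4-ECKO, 0.417, 0.850 and 0.752 TPM in Brg1-ECKO, with 1.37, 2.02 and 1.24 TPM in Chd4/Brg1-ECDKO. The Chd4/Brg1-ECDKO libraries were above the Brg1-ECKO libraries and overlapped those of Cre- and Chd4-ECKO. Against Cre- the Chd4/Brg1-ECDKO difference was 0.35 on the log2 scale (SE 0.23, 95% interval -0.16 to 0.85, adjusted p = 0.524 by limma), beside a median of 0.16 over all genes. The largest Trib3 difference in the 5 LSEC comparisons was Chd4/Brg1-ECDKO over Brg1-ECKO, 0.60 (SE 0.23, 95% interval 0.10 to 1.10), and it did not pass the adjusted test either (adjusted p = 0.653). Chd4/Brg1-ECDKO and Chd4-ECKO LSECs differed by 0.10 (95% interval -0.40 to 0.61, adjusted p = 0.871), a sign that turned to -0.025 under quantile normalization to -0.12 without Chd4-ECKO replicate 1 and to -0.03 without Chd4/Brg1-ECDKO replicate 2.

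Chac1 (chr2:119180757-119184866, plus strand), which encodes a glutathione-degrading enzyme induced by ATF4 and CHOP, was nearer the lower limit of the measurement. Its non-EC values were 0.105, 0.326 and 0.294 TPM in Cre-, 0.190, 0.416 and 0.768 TPM in Chd4-ECKO, 0.423, 0.937 and 0.107 TPM in Brg1-ECKO, with 1.35, 1.08 and 0.631 TPM in Chd4/Brg1-ECDKO. The Chd4/Brg1-ECDKO libraries were all above the Cre- libraries and overlapped both single knockouts. In LSECs Chac1 measured 0.500, 0.479 and 0.432 TPM in Cre- and 0.600, 0.544 and 0.153 TPM in Chd4/Brg1-ECDKO, and the Chd4-ECKO and Brg1-ECKO libraries, from listed at 0 to 0.250 TPM, were all below Cre-. Because only 2 libraries reached 1 TPM, Chac1 failed the filter of at least 1 TPM in at least 3 libraries and entered no model, so 9 of the 10 members could be tested.

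Ddit3 (chr10:127124268-127132163, plus strand) encodes CHOP, the transcription factor of lasting stress that works upstream of Trib3 and Chac1. It measured 50.9, 68.1 and 62.3 TPM in non-EC Cre- cells and 62.2, 69.2 and 64.1 TPM in non-EC Chd4/Brg1-ECDKO cells. The groups overlapped. Across LSEC genotypes Ddit3 ran from 31.4 to 45.8 TPM with overlap between all groups, and its differences from Cre- lay between -0.06 and 0.10 on the log2 scale. Ddit3 overlaps Mars1 and Mbd6 on the opposite strand and a second Ensembl gene of its own name, and whether the reads were counted by strand is not given in the sources used here, so its level may hold reads of these genes.

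The level of Atf4 itself barely separated the genotypes. In the non-EC cells it measured 388, 463 and 400 TPM in Cre-, 380, 417 and 423 TPM in Chd4-ECKO, 333, 464 and 391 TPM in Brg1-ECKO, with 428, 410 and 398 TPM in Chd4/Brg1-ECDKO. All 4 groups overlapped. Its log2 difference from Cre- was -0.03 in Chd4-ECKO (95% interval -0.29 to 0.22, adjusted p = 0.860, limma) and -0.08 in Brg1-ECKO (95% interval -0.34 to 0.17, adjusted p = 0.660), and -0.01 in Chd4/Brg1-ECDKO, where it was not tested. In LSECs the largest Atf4 difference was 0.21 in Brg1-ECKO (95% interval -0.05 to 0.46, adjusted p = 0.606). ATF4 is regulated through translation, which these RNA measurements do not show.

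Over the whole list, non-EC cells of Chd4/Brg1-ECDKO livers were higher than Cre- without overlap for 4 of 10 members, Trib3, Chac1, Igfbp1 and Phgdh, and lower without overlap for 0. Of all 12223 genes in the model, 16% were higher without overlap. Nothing is read from this count, since the comparison chose the members. The other 6 members overlapped, with log2 differences from -0.01 for Atf4 to 0.30 for Cebpb, and Asns stood at 0.02 and Psat1 at 0.16. The median over the 9 members in the model was 0.16, beside 0.01 over all genes.

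Igfbp1 (chr11:7147651-7152546, plus strand) was the member called in both single knockouts of the non-EC cells. It measured 64.3, 59.9 and 65.4 TPM in Cre-, 164, 140 and 105 TPM in Chd4-ECKO, 115, 118 and 112 TPM in Brg1-ECKO, with 198, 190 and 116 TPM in Chd4/Brg1-ECDKO. Every knockout library lay above every Cre- library. Against Cre- the rise was 1.08 on the log2 scale in Chd4-ECKO (SE 0.19, adjusted p = 0.0103, limma) and 0.85 in Brg1-ECKO (SE 0.19, adjusted p = 0.0175), and in Chd4/Brg1-ECDKO the untested ratio was 2.66. The Chd4-ECKO call held without any 1 of its 6 libraries. The Brg1-ECKO call was lost without Brg1-ECKO replicate 1 (adjusted p = 0.0629), Brg1-ECKO replicate 3 (0.0544) or Cre- replicate 2 (0.0658), with log2 differences of 0.82 to 0.88 over the 6 leave-outs.

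Igfbp1 is made by hepatocyte-lineage cells, and hepatoblast markers moved in the same libraries. Of 9 hepatoblast markers 7 rose in non-EC Chd4-ECKO cells (median of the 9, 0.83) and 9 rose in Brg1-ECKO (median 0.94), where 9.48% and 11.7% of all genes were called. Their summed level was 17309 to 19384 TPM in Cre-, 26237 to 35498 TPM in Chd4-ECKO, 25902 to 37447 TPM in Brg1-ECKO, with 22337 to 29587 TPM in Chd4/Brg1-ECDKO. No marker was at 0 in any library. The part of these markers in the rise of Igfbp1 was not tested. In bulk samples fewer cells of a type and less RNA per cell cannot be told apart.

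**Figure D2:**
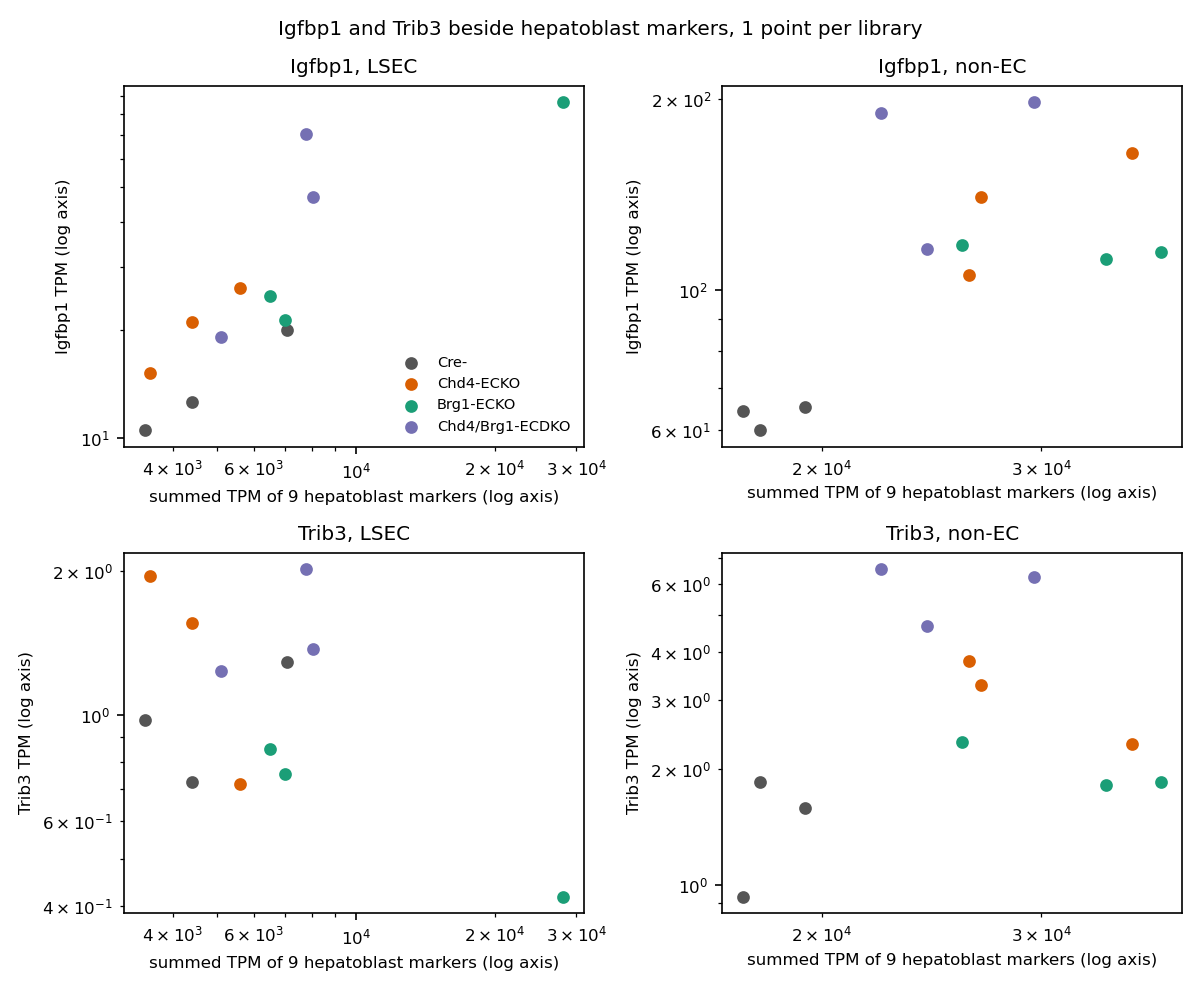
TPM of Igfbp1 (top) and Trib3 (bottom) against the summed TPM of 9 hepatoblast markers in LSECs (left) and non-EC cells (right), 1 point per library, all axes logarithmic. In non-EC cells the 3 Cre- libraries, at 17309 to 19384 TPM of markers, are lowest on the horizontal axis and lowest for Igfbp1, and in LSECs Brg1-ECKO replicate 1, at 28059 TPM, stands far right with 86.3 TPM of Igfbp1 and 0.417 TPM of Trib3.

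Phgdh and Psat1 encode the first enzymes of serine synthesis from glycolytic 3-phosphoglycerate and were called in Brg1-ECKO non-EC cells. Phgdh (chr3:98220484-98255047, minus strand) measured 303, 203 and 321 TPM in Cre-, 300, 345 and 459 TPM in Chd4-ECKO, 499, 409 and 429 TPM in Brg1-ECKO, with 376, 422 and 457 TPM in Chd4/Brg1-ECDKO. Psat1 (chr19:15882039-15924701, minus strand) measured 275, 249 and 276 TPM in Cre-, 325, 307 and 340 TPM in Chd4-ECKO, 373, 323 and 324 TPM in Brg1-ECKO, with 339, 263 and 294 TPM in Chd4/Brg1-ECDKO. The Brg1-ECKO libraries were above Cre- for both genes, and the Chd4-ECKO libraries for Psat1. Phgdh rose by 0.72 on the log2 scale in Brg1-ECKO (SE 0.19, 95% interval 0.30 to 1.13, adjusted p = 0.0311, limma), and Psat1 by 0.35 (SE 0.10, 95% interval 0.12 to 0.57, adjusted p = 0.0483). In that comparison 9 of 9 hepatoblast markers rose (median 0.94) and 1 of 9 erythroid markers fell (median -0.85), where 11.7% of all genes were called. The part of these markers in the rises of Phgdh and Psat1 was not tested.

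The calls of Phgdh and Psat1 depended on single libraries. Psat1 lost its call without any 1 of the 6 libraries compared (adjusted p from 0.0658 to 0.170, log2 difference 0.28 to 0.38) and under 4 other settings. Phgdh lost its call without Brg1-ECKO replicate 1 (adjusted p = 0.117), Brg1-ECKO replicate 3 (0.0790) or Cre- replicate 2 (0.102). In Chd4-ECKO, Phgdh stood at 0.42 (adjusted p = 0.139), and without Chd4-ECKO replicate 1 at 0.56 (adjusted p = 0.0412). Over the 6 leave-outs this Phgdh difference ran from 0.22 to 0.56. Psat1 stood at 0.28 in Chd4-ECKO (adjusted p = 0.0867).

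Counted over the 8 members that could be tested against Cre- in non-EC cells, Trib3 left out, 1 rose in Chd4-ECKO (Igfbp1) and 3 rose in Brg1-ECKO (Igfbp1, Phgdh and Psat1), and 0 fell. Over all 12223 genes 9.48% were called in Chd4-ECKO and 11.7% in Brg1-ECKO, so the Chd4-ECKO share of members was near the background and the Brg1-ECKO share, which went from 3 to 0 when any of 3 libraries was left out, rested on few genes. Mitochondrial genes took 6.17 to 7.69% of TPM in non-EC Cre- libraries, 2.33 to 7.37% in Chd4-ECKO, and 3.04 to 5.51% in Brg1-ECKO, which lay wholly below Cre-, and without these genes in TPM Igfbp1 and Phgdh were still called in Brg1-ECKO (adjusted p = 0.0288 and 0.0405) and Psat1 was not (0.0811). Cebpb stood at 0.40 in Chd4-ECKO (adjusted p = 0.132) and 0.50 in Brg1-ECKO (adjusted p = 0.0914), with 0.18 to 0.55 and 0.28 to 0.64 over leave-outs. Asns, Ddit3 and Sesn2 lay between -0.07 and 0.16 in these 2 comparisons. Between Brg1-ECKO and Chd4-ECKO non-EC cells limma called 0 of 9 members, with 1 at an unadjusted p under 0.05 (Trib3, beside 2.90% of all genes), against 0% of all genes called.

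**Figure D3:**
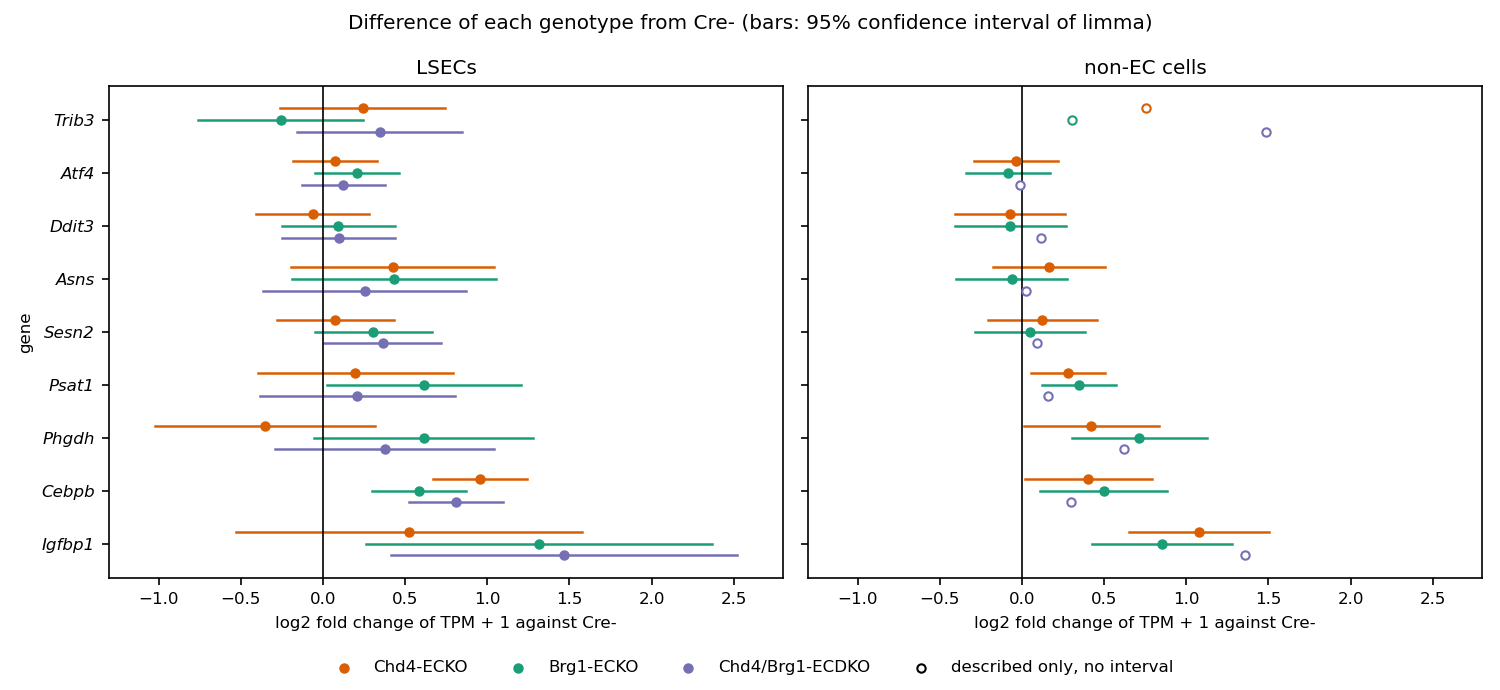
Difference of each genotype from Cre- on the log2(TPM + 1) scale (horizontal axis) for the 9 members in the models, in LSECs (left) and non-EC cells (right). Filled points carry the 95% confidence interval of limma and open points, described only, carry none; Cebpb in LSECs stands at 0.96, 0.58 and 0.81, and Igfbp1 in non-EC cells at 1.08, 0.85 and 1.36.

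Cebpb was the member whose level in LSECs separated the knockouts from Cre-. It encodes C/EBPβ, a transcription factor of acute-phase and inflammatory responses that can pair with ATF4, and is itself an ATF4 target. In LSECs Cebpb (chr2:167530835-167532338, plus strand) measured 18.8, 16.9 and 18.3 TPM in Cre-, 31.8, 37.6 and 38.5 TPM in Chd4-ECKO, 25.3, 31.0 and 26.2 TPM in Brg1-ECKO, with 30.8, 30.2 and 36.0 TPM in Chd4/Brg1-ECDKO. All 9 knockout libraries lay above the 3 Cre- libraries, which were close together (SD 1.00 TPM, n = 3). The rise was 0.96 on the log2 scale in Chd4-ECKO (SE 0.13, 95% interval 0.67 to 1.24, adjusted p = 0.00337, limma), and 0.81 in Chd4/Brg1-ECDKO (SE 0.13, 95% interval 0.52 to 1.10, adjusted p = 0.0105). In Brg1-ECKO the difference of 0.58 (SE 0.13, 95% interval 0.30 to 0.87) had an unadjusted p of 0.000664 and an adjusted p of 0.203.

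Leaving out single libraries kept the Chd4-ECKO call of Cebpb in 6 of 6 cases, with log2 differences of 0.91 to 1.04. The Chd4/Brg1-ECDKO call was lost without Chd4/Brg1-ECDKO replicate 3 (adjusted p = 0.0670) or Cre- replicate 2 (0.0722), at differences of 0.73 and 0.77. Chd4/Brg1-ECDKO and Chd4-ECKO LSECs differed by -0.15 (95% interval -0.44 to 0.14, adjusted p = 0.656). Myeloid cells also express Cebpb, and the 8 myeloid markers, none at 0 in any library, summed to 504 to 642 TPM in LSEC Cre- libraries, 636 to 1145 TPM in Chd4-ECKO, 481 to 798 TPM in Brg1-ECKO, with 594 to 913 TPM in Chd4/Brg1-ECDKO. Of these 8 markers Fcer1g rose in Chd4-ECKO LSECs, by 1.12 (adjusted p = 0.0350), and the median over the 8 was 0.95. Their part in the rise of Cebpb was not tested. In non-EC cells Cebpb measured 23.7, 13.8 and 21.4 TPM in Cre- and at most 29.8 TPM in the knockouts, and it passed no test there. Cebpb overlaps Peds1 on the opposite strand, so its level may hold reads of that gene. Asns and Psat1 each overlap 1 gene on the opposite strand and Sesn2 overlaps 1 on its own strand, none of them protein-coding. The levels of these 3 members may hold such reads too.

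The remaining members gave no call among LSEC genotypes. Igfbp1 had the widest spread, with 12.6, 20.0 and 10.5 TPM in Cre-, 26.3, 21.0 and 15.2 TPM in Chd4-ECKO, 86.3, 24.9 and 21.3 TPM in Brg1-ECKO, with 47.0, 70.5 and 19.1 TPM in Chd4/Brg1-ECDKO. Brg1-ECKO lay above Cre- without overlap and the other knockouts overlapped it. The log2 difference was 1.32 in Brg1-ECKO (SE 0.49, adjusted p = 0.426, limma) and 1.47 in Chd4/Brg1-ECDKO (SE 0.49, 95% interval 0.41 to 2.52, adjusted p = 0.234), and the latter was called (adjusted p = 0.0369) when only the libraries of those 2 groups were fitted. Without Brg1-ECKO replicate 1, the library with 28059 TPM of hepatoblast markers, the Brg1-ECKO difference of Igfbp1 was the lowest over the leave-outs, 0.70.

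The same Brg1-ECKO replicate 1 held the highest LSEC values of Asns, Psat1, Phgdh and Sesn2. Asns measured 130 TPM there against 42.7 to 82.8 TPM in the other 11 LSEC libraries, Psat1 221 TPM against 71.3 to 104 TPM, and Phgdh 274 TPM against 64.1 to 170 TPM. All 4 genes had higher means in non-EC cells than in LSECs in each genotype, and the part of the hepatoblast RNA in this library was not tested. Sesn2 (chr4:132219335-132237815, minus strand), which encodes a leucine sensor that restrains mTORC1, measured 5.32, 6.10 and 5.46 TPM in LSEC Cre- libraries, 8.67, 6.75 and 6.29 TPM in Brg1-ECKO, with 8.58, 6.41 and 7.72 TPM in Chd4/Brg1-ECDKO. Both knockouts lay above Cre- without overlap, by 0.30 (adjusted p = 0.584) and 0.37 (adjusted p = 0.398) on the log2 scale. Phgdh was higher in Chd4/Brg1-ECDKO than in Chd4-ECKO LSECs in every library pair, by 0.73 (SE 0.31, adjusted p = 0.475, limma).

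In LSECs limma thus called 1 of 9 members in Chd4-ECKO against Cre-, 0 of 9 in Brg1-ECKO and 1 of 9 in Chd4/Brg1-ECDKO, Cebpb in both cases, where 0.707%, 0.0223% and 0.87% of 13444 genes were called. At an unadjusted p under 0.05 the counts were 1, 3 and 3 of 9, beside 6.49%, 9.68% and 12.1% of all genes. Chd4/Brg1-ECDKO against Chd4-ECKO gave 0 of 9, with 1 at an unadjusted p under 0.05 (Phgdh, beside 10.4% of all genes) and 0.0372% of all genes called. Chd4/Brg1-ECDKO against Brg1-ECKO also gave 0 of 9, with 1 at an unadjusted p under 0.05 (Trib3, beside 6.10% of all genes) and 0.0967% of all genes called.

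The wider difference lay between the fractions, where most members were lower in LSECs. In Cre- livers Asns (chr6:7671667-7728461, minus strand), the enzyme that makes asparagine from aspartate and glutamine, measured 53.0, 68.6 and 48.1 TPM in LSECs and 315, 373 and 323 TPM in non-EC cells. The groups were far apart, a difference of -2.57 on the log2 scale (SE 0.25, 95% interval -3.10 to -2.04, adjusted p = 2.01e-08, limma), the largest of the 9 members in the model. Atf4 was lower in LSECs by a log2 difference of -1.08 (SE 0.11, adjusted p = 5.07e-08), from 197 ± 9.73 against 417 ± 40.4 TPM (SD, n = 3 each). Psat1 differed by -1.74, Phgdh by -1.44, Igfbp1 by -2.11, Sesn2 by -0.79 and Ddit3 by -0.71, and these 5 passed the test as well. With Trib3 left out, as described next, 7 of 8 members were called, all lower in LSECs, against 67.1% of 13775 genes, so being called at all was common. Of the genes called, 4316 were higher in LSECs and 4925 lower.

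Markers of several cell types differed between the same Cre- fractions. Of 9 erythroid markers 9 were lower in LSECs (median -2.78), at summed levels of 528 to 1804 TPM against 2765 to 10167 TPM in non-EC cells, of 5 megakaryocyte markers 5 were lower (median -1.95), at 265 to 282 TPM against 765 to 1195 TPM, and of 9 hepatoblast markers 8 were lower (median -1.85), at 3483 to 7068 TPM against 17309 to 19384 TPM. Of 6 stellate and mesenchymal markers 6 were higher in LSECs (median 4.64), at 1046 to 1405 TPM against 21.3 to 47.9 TPM, close to the 1432 to 1876 TPM of the 9 endothelial markers in those LSEC libraries. Of 8 myeloid markers 5 were higher and 1 lower (median 0.82). No marker was at 0 in any library, and the part of these cell types in the fraction differences of the members or of the pathway lists was not tested.

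Cebpb did not pass the test in Cre- livers, with a difference of -0.09 (95% interval -0.41 to 0.23, adjusted p = 0.624). For Trib3 the difference in Cre- livers was -0.29, or -0.95 under quantile normalization, and it is a description because the non-EC Cre- libraries took part in choosing the gene. In Chd4-ECKO livers 9 of 9 members were called, 8 lower and 1 higher in LSECs, against 68.4% of genes, and in Brg1-ECKO livers 8 of 9, all lower, against 62.9%. Trib3 was lower in LSECs of Chd4-ECKO by a log2 difference of -0.80 (SE 0.21, adjusted p = 0.00221) and of Brg1-ECKO by -0.85 (SE 0.21, adjusted p = 0.00156). Over the other settings and leave-outs these Trib3 differences ran from -1.48 to -0.57 and from -1.48 to -0.73. The member that was higher was Cebpb in Chd4-ECKO, by 0.46 (SE 0.15, adjusted p = 0.0119), a call lost without non-EC Chd4-ECKO replicate 2 (adjusted p = 0.0608). In Brg1-ECKO, Ddit3 at -0.55 and Sesn2 at -0.54 lost their calls when mitochondrial genes were left out of TPM (adjusted p = 0.0869 and 0.0866), and Ddit3 also without non-EC Brg1-ECKO replicate 2 (adjusted p = 0.0552).

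**Figure D4:**
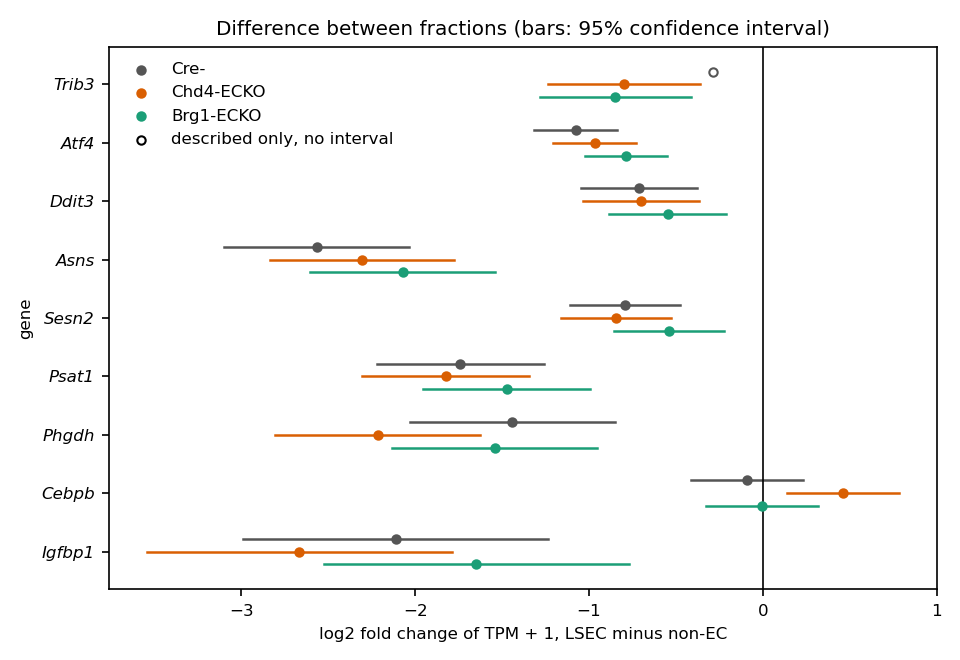
Difference LSEC minus non-EC on the log2(TPM + 1) scale (horizontal axis) with the 95% confidence interval of limma for the 9 members, in Cre-, Chd4-ECKO and Brg1-ECKO livers, the open point, Trib3 in Cre-, being described only. Asns lies furthest left in Cre- at -2.57, Igfbp1 in Chd4-ECKO at -2.67, and Cebpb is the member nearest 0 or above it, at -0.09, 0.46 and -0.00.

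Whether a knockout moved a member differently in the 2 fractions was tested as an interaction. For Chd4-ECKO limma called 0 of 8 members, Trib3 left out, with 1 at an unadjusted p under 0.05, against 1.02% of all genes, and for Brg1-ECKO 0 of 8, with 0 at an unadjusted p under 0.05, against 1.04%. An unadjusted p under 0.05 was had by 19.1% and 17.9% of all genes in these tests. Cebpb came nearest in Chd4-ECKO, where its rise was 0.55 larger in LSECs (SE 0.22, 95% interval 0.10 to 1.01, adjusted p = 0.195), and without non-EC Cre- replicate 2 it was called (0.78, adjusted p = 0.0386). The interactions of Trib3, -0.51 in Chd4-ECKO and -0.56 in Brg1-ECKO, use the non-EC Cre- libraries of the comparison that chose it and are a description, as is -0.999 for Brg1-ECKO with 0.1 TPM added. The LSEC and non-EC means of Trib3 in Chd4/Brg1-ECDKO were 1.55 and 5.83 TPM, given without a test.

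The other genes of the pathway were read from 8 lists holding 89 genes, chosen like the members with earlier results of these data known. In LSECs limma called 0 of the 85 list genes in the model in each of the 5 comparisons between genotypes, with 7, 14, 10, 7 and 6 at an unadjusted p under 0.05 in Chd4-ECKO, Brg1-ECKO and Chd4/Brg1-ECDKO against Cre- and in Chd4/Brg1-ECDKO against Chd4-ECKO and Brg1-ECKO, where 6.49%, 9.68%, 12.1%, 10.4% and 6.10% of all genes had such a p. In non-EC cells 13 rose and 1 fell of 85 in Chd4-ECKO, and 16 rose and 1 fell in Brg1-ECKO, where 9.48% and 11.7% of all genes were called. These shares of all genes are the background for each list count in the single knockouts of the non-EC cells that follows. Between Brg1-ECKO and Chd4-ECKO it called 0 of 85, with 0 at an unadjusted p under 0.05, which 2.90% of all genes had.

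Upstream of ATF4, among 12 genes for eIF2 kinases and translation control, Eif2s1, which encodes the eIF2α subunit that the kinases phosphorylate, fell in non-EC cells by 0.45 in Chd4-ECKO (adjusted p = 0.0291, limma) and by 0.37 in Brg1-ECKO (adjusted p = 0.0442). Its levels were 343, 366 and 316 TPM in Cre-, 288, 257 and 211 TPM in Chd4-ECKO, 272, 257 and 263 TPM in Brg1-ECKO, with 305, 322 and 320 TPM in Chd4/Brg1-ECDKO. The single knockouts lay below Cre- without overlap. Of 6 transcription factor partners Atf5, a relative of ATF4 that is also expressed in hepatocytes, rose by 0.80 in Brg1-ECKO (adjusted p = 0.0316), at 170, 160 and 163 TPM against 98.9, 85.6 and 97.7 TPM. It measured 151, 152 and 156 TPM in Chd4-ECKO, where 0 of the 6 passed limma's test, and 200, 91.5 and 115 TPM in Chd4/Brg1-ECDKO.

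Downstream, the enzymes of amino acid synthesis gave 2 of 11 called in Chd4-ECKO and 3 of 11 in Brg1-ECKO non-EC cells, all higher, beside 9.48% and 11.7% of all genes, so few that nothing is read from the counts. Cbs, which makes cystathionine from homocysteine and serine, rose by 0.85 (adjusted p = 0.0190) and 0.91 (adjusted p = 0.00870). Psph, the enzyme after Phgdh and Psat1 in serine synthesis, rose by 0.53 (adjusted p = 0.0155) and 0.64 (adjusted p = 0.00388), and Gpt2, an alanine aminotransferase, rose by 0.71 in Brg1-ECKO (adjusted p = 0.0296). Cbs measured 4.89, 3.98 and 4.81 TPM in Cre- and 7.16 to 11.4 TPM in the 9 knockout libraries, with no overlap. Hepatoblast markers rose in the same comparisons, and their part in the rises of these enzymes was not tested. Of 8 amino acid transporters Slc1a4 rose by 0.44 in Chd4-ECKO (adjusted p = 0.0471) and 0 passed in Brg1-ECKO. Of 13 genes for tRNA charging and export, the aminoacyl-tRNA synthetases and Xpot, 0 passed limma's test in either single knockout, with medians of 0.06 and 0.01.

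The stress outputs, of which 6 were in the model, gave 2 higher in both single knockouts of the non-EC cells. Bbc3, which encodes the pro-apoptotic protein PUMA, rose by 0.78 (adjusted p = 0.00687) and 0.72 (adjusted p = 0.00407), and Tnfrsf10b, which encodes a death receptor for TRAIL, by 0.63 (adjusted p = 0.0302) and 0.57 (adjusted p = 0.0317). Bbc3 measured 5.96, 5.83 and 5.25 TPM in Cre- and 9.09 to 11.8 TPM in the 9 knockout libraries. Both genes are p53 targets as well. The effect of Chd4-ECKO on Bbc3 differed between fractions, by -0.87 (adjusted p = 0.0320, limma). It was the 1 call among 86 list genes in that test, where 1.02% of all genes were called, a share near the background. In LSECs Bbc3 measured 5.68 to 6.69 TPM across Cre- and Chd4-ECKO. Ddit4, which encodes an mTORC1 inhibitor induced by ATF4, hypoxia and glucocorticoids, measured 2.54, 2.13 and 3.47 TPM in non-EC Cre- cells and 8.08, 11.0 and 7.06 TPM in Chd4/Brg1-ECDKO, with no overlap and no test. Its differences of 0.84 in Chd4-ECKO (adjusted p = 0.0600, limma) and 0.66 in Brg1-ECKO (adjusted p = 0.124) did not pass.

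Of 18 genes of the endoplasmic reticulum chaperone response, 7 rose in non-EC Chd4-ECKO cells, where 9.48% of all genes were called, and 9 in Brg1-ECKO, where 11.7% were, and 0 fell. Xbp1, the transcription factor of the unfolded protein response, rose by 0.56 and 0.59, Pdia4, a disulfide isomerase, by 0.49 and 0.66, and Manf, a secreted chaperone, by 0.43 and 0.55. Without mitochondrial genes in TPM the Chd4-ECKO count was 4 of 18 and the Brg1-ECKO count 9. Hepatoblasts secrete much protein, their markers rose in the same comparisons, as given above, and the part of these markers in the rise of the chaperones was not tested. Of 11 immediate-early genes Jund rose in both, by 0.55 and 0.58, and no other passed the test.

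**Figure D5:**
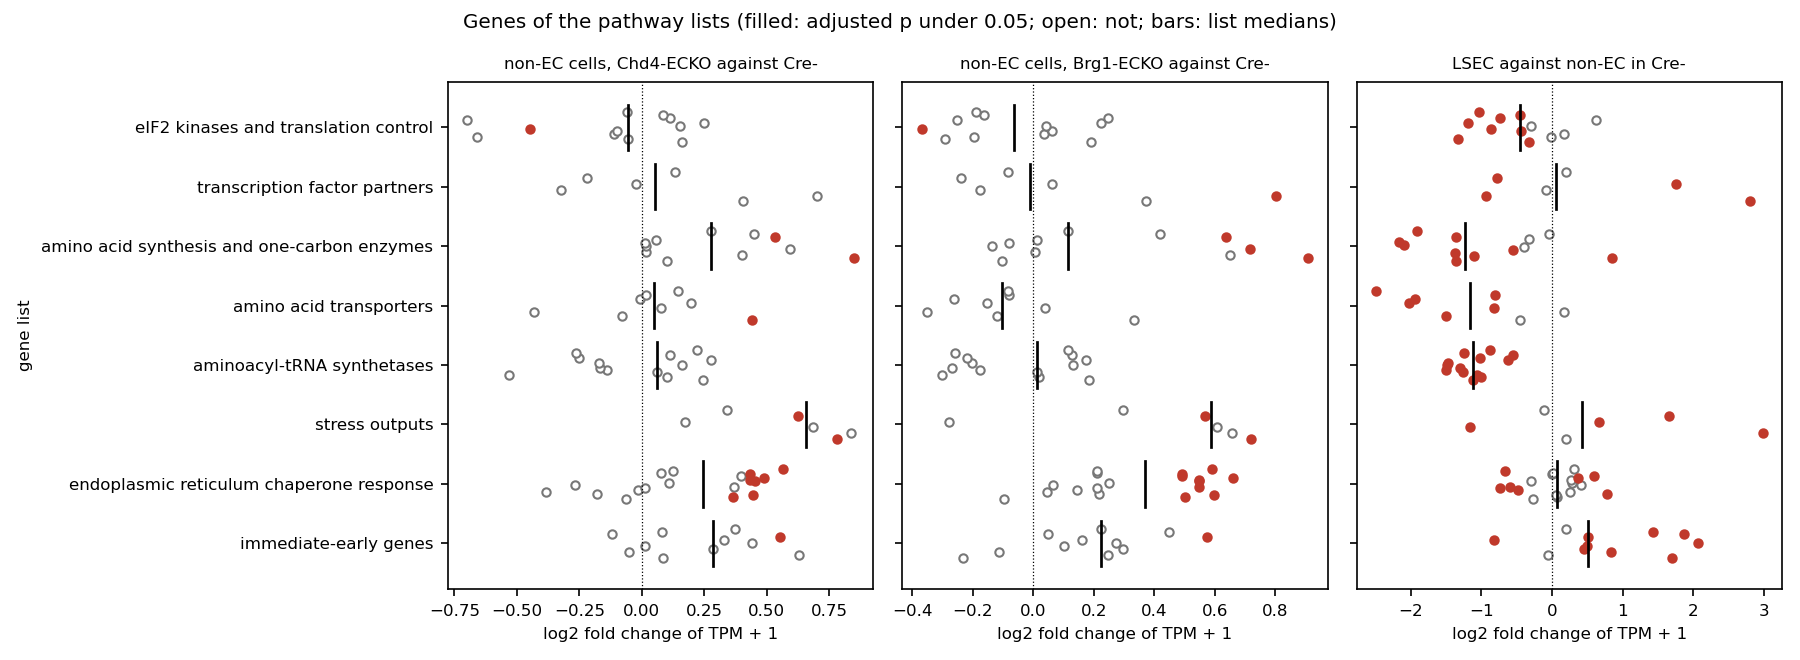
Each point is 1 gene of the 8 pathway lists on the log2(TPM + 1) scale (horizontal axis), for non-EC Chd4-ECKO and Brg1-ECKO against Cre- and for LSEC against non-EC cells in Cre-. Filled points passed limma's test at an adjusted p under 0.05, open points did not, and bars are list medians; the aminoacyl-tRNA synthetases and Xpot lie near 0 in the first 2 panels (medians 0.06 and 0.01) and left of 0 in the third (median -1.12).

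Between the fractions of Cre- livers 67.1% of all genes were called, so the counts of called genes in the enzyme, transporter and eIF2 lists were near the background, and they are given for their direction. All 13 tRNA charging genes were lower in LSECs (median -1.12), as they were in Chd4-ECKO and Brg1-ECKO livers (medians -1.04 and -0.87), and 12 or 13 of 13 were lower under quantile normalization or without mitochondrial genes. Of 12 enzymes of amino acid synthesis and one-carbon metabolism 8 were lower and 1 higher, with Mthfd2 at -2.17 and Shmt2 at -1.91, the mitochondrial folate enzymes, among the largest. Of 8 amino acid transporters 6 were lower, led by Slc7a5, the large neutral amino acid carrier, at -2.49, and 0 higher. Of 12 genes for eIF2 kinases and translation control 8 were lower and 0 higher (5 and 2 without mitochondrial genes), among them the haem-regulated kinase Eif2ak1 at -1.33 and the GCN2 activator Gcn1 at -1.19.

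Between the same fractions the 6 transcription factor partners split into 2 higher and 2 lower in LSECs, and the 6 stress outputs into 3 higher and 1 lower, or 2 and 2 under quantile normalization. Atf3, an ATF4 target that is also an immediate-early gene, was higher in LSECs by 2.81 (adjusted p = 4.23e-09, limma) and Jdp2 by 1.76, while Atf5 and Nfe2l2 were lower by log2 differences of -0.93 and -0.79. Ddit4 was higher by 2.98 and Tnfrsf10b by 1.66, and Gdf15 was lower at -1.17. Of 18 genes of the endoplasmic reticulum chaperone response 3 were higher in LSECs and 4 lower, where 67.1% of all genes were called, and the median log2 difference was 0.07 against -0.09 over all genes. The split turned on the scaling, with 9 higher and 5 lower under quantile normalization and 9 higher and 0 lower without mitochondrial genes in TPM. Dnajb9, a co-chaperone, stood at 0.78 and Pdia6, a disulfide isomerase, at 0.60, while Ern1, which encodes the stress sensor IRE1, stood at -0.74 and Syvn1, a ubiquitin ligase of protein degradation, at -0.67. Of 11 immediate-early genes 8 were higher in LSECs and 1 lower (6 and 2 under quantile normalization), with Jun at 2.06, Klf6 at 1.88 and Dusp1 at 1.70. Immediate-early genes respond to the handling of cells during digestion and bead binding, the digestion solution held inhibitors of transcription and translation, and the part of handling in Atf3, Ddit4 or any member was not tested.

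Genes whose levels ran most like Trib3 were listed separately for each fraction, by Pearson's r of log2(TPM + 1) over 12 libraries, as a description across libraries that share genotypes. In LSECs, among 10417 genes with a mean of at least 5 TPM, these were Pkm (r = 0.946, Spearman's rho = 0.944), Kcne3 (0.939 and 0.797), Fam162a (0.932 and 0.881), Bnip3l (0.932 and 0.937) and Tpi1 (0.920 and 0.867). In non-EC cells, among 9432 genes, they were Tnnt2 (0.911 and 0.874), Rhbdd1 (0.889 and 0.895), Tatdn3 (0.884 and 0.888), Bnip3 (0.860 and 0.874) and Egln1 (0.854 and 0.839). The lists had no gene in common. Without the 2 libraries farthest from the median of Trib3, r ran from 0.873 to 0.962 in LSECs and from 0.738 to 0.853 in non-EC cells. The other members were left out of this ranking beforehand, so it does not show how they ran beside Trib3. Trib3 itself was at or below 2.02 TPM in LSECs.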

How the data were processed

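RNA was measured by poly-A selected paired-end RNA-seq in 24 libraries of embryonic day 12.5 mouse liver, split with CD146 MicroBeads after digestion with actinomycin D, triptolide and anisomycin, inhibitors of transcription and translation. The authors made the deposited TPM values with CLC Genomics Workbench on GRCm39; annotation release, strand setting and treatment of shared reads are not given in the sources used here. Their 8 group-mean columns were not used, and 0 columns belonged to other samples. TPM sums to the same total in each library, so the read number of each library cannot be told from the values (the methods give 1 nominal number for all) and no counting interval is given. Replicate libraries correlated at 0.981 to 0.996.

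Here, log2(TPM + 1) was tested with limma 3.58.1 with trend (R 4.3.3), 1 model for LSECs (13444 genes), 1 for non-EC cells (12223 genes) and 1 for comparisons between fractions and interactions (13775 genes), over genes that reached 1 TPM in 3 or more libraries, in 13 contrasts. P-values were adjusted by Benjamini-Hochberg over all genes and called under 0.05, 2-sided. The members and gene lists were chosen with earlier results of these data known. Named were all 10 members, at most 6 called genes of each list and contrast with the largest differences, and 5 genes most like Trib3 per fraction; list genes given with values that did not pass were named after their values were seen. Motifs and sequences were read from GRCm39 with GENCODE vM39 starts (python 3.11.15). Scripts were tested on simulated data. Same-numbered libraries deviated together (every correlation over 0.1) in 6 of 13 pairs of groups checked, which leave out the interactions and include the untested pairs of Chd4/Brg1-ECDKO. All 4 pairs of fractions were among the 6. Alternatives were another pseudocount, filter, scaling or moderation, the replicate block, the compared groups alone, an added fold threshold and each library left out.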

Additional observations from a re-analysis of the deposited data

How the results depend on the processing

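Of the counts of called members, 194 stayed within 1.5 times and 13 moved, and of the members' log2 differences 671 kept direction and side of the threshold, 22 lost the call, 3 gained it, 3 reversed and 4 untested ones moved by more than the spread. With a log2 difference above 1 required as well, the counts were 0 for Chd4-ECKO and 0 for Chd4/Brg1-ECDKO LSECs against Cre-, 0 for Brg1-ECKO non-EC cells, and 4 each between the fractions of Chd4-ECKO and Brg1-ECKO livers. With only the groups compared, Chd4/Brg1-ECDKO LSECs had 2 called members. The replicate block kept the count of called members in each of 13 contrasts (1, 0, 1, 0 and 0 in LSECs, 1, 3 and 0 in non-EC cells, 7, 9 and 8 between fractions, 0 and 0 for interactions) and changed no member's call. Trib3 in Chd4/Brg1-ECDKO against Chd4-ECKO LSECs reversed to -0.025 with quantile normalization and ran from -0.12 to 0.27 over leave-outs. With a pseudocount of 0.1 TPM, non-EC Trib3 differed from Cre- by 1.97 in Chd4/Brg1-ECDKO (1.32 to 1.61 over leave-outs at 1 TPM) and by 1.08 in Chd4-ECKO. Over leave-outs the called members numbered 0 to 1 for Chd4/Brg1-ECDKO LSECs, 0 to 2 for Brg1-ECKO and 1 to 2 for Chd4-ECKO non-EC cells, 0 to 1 for the Chd4-ECKO interaction, and 8 to 9 and 7 to 8 between the fractions of Chd4-ECKO and Brg1-ECKO. Psat1 lost its Brg1-ECKO call under quantile normalization (adjusted p = 0.0556), without mitochondrial genes (0.0811), over every gene above 0 TPM (0.0638) and with no trend (0.0723). The cause of these changes was not tested. Over all genes, calls fell from 1159 to 165 for Chd4-ECKO non-EC cells and rose from 117 to 313 for Chd4/Brg1-ECDKO and from 95 to 148 for Chd4-ECKO LSECs with only the groups compared, and quantile normalization gave 1910 for the first. Quantile normalization moved the median of all genes in Chd4/Brg1-ECDKO LSECs against Cre- from 0.16 to -0.00, and leaving out mitochondrial genes moved that between Cre- fractions from -0.09 to 0.16. The read number of each library is not known from the values, so no counting error is given for any member.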
